A study of Mus musculus with 6 samples.

Results

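The 31 genes described here encode proteins of the cardiac sarcomere and of the Z-disc that anchors it, among them titin, the regulatory light chains, the troponins and tropomyosins, alpha-actinin and desmin. They were taken by name from 46078 gene features counted in heart muscle cells of mice, together with the 8 annotated features whose exons lie opposite to theirs on the other strand. The cells were labelled cardiomyocytes and were isolated from perfused hearts. One group carried the genotype Acly-KD (3 libraries, here Acly_KD), a knockdown of Acly made with MyH6-Cas9 mice, in which the promoter of a heart muscle myosin gene drives Cas9. The other group was wildtype (3 libraries, here control), and both groups shared the perfusion. The comparison asks which genes differ between Acly-KD and wildtype heart muscle cells. Acly encodes ATP-citrate lyase, a source of acetyl-CoA in the cytosol. Any effect of Cas9 or of the delivery cannot be told apart from that of the knockdown. Age, sex, and how the knockdown was delivered are not given in the sources used here. Whether the libraries came from separate animals is not given either, so the p-values reflect library-to-library spread, part of which may be technical.

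The sarcomere is the contractile unit of striated muscle. Thick filaments of myosin, with light chains and myosin-binding protein C, slide past thin filaments of actin, tropomyosin and the calcium-sensing troponin complex. Z-discs, built around alpha-actinin, cross-link the thin filaments of neighbouring sarcomeres, and the M-band holds the thick filaments together. Titin spans from the Z-disc to the M-band and acts as a spring that sets passive stiffness, and its gene has an exceptionally long coding sequence.

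For each gene 2 values were read. The own row is the count deposited under the gene's own identifier. The opposite feature is the row of an annotated gene whose exons overlap those of the member on the other strand. Of all uniquely aligned reads, 2.81% to 3.07% were counted in any feature, and feature totals ran from 271463 in control 1 to 814765 in control 2. The rows of the 31 members held 0.288% to 1.06% of those counts, although their transcripts are abundant in heart, and the counts looked strand-swapped. Acly itself had 0 reads in all 3 Acly_KD libraries and 1, 5 and 6 reads in control 1 to 3. With so few reads and the strand in doubt, this row does not measure Acly mRNA, and the knockdown could not be checked from it. Because the counts looked strand-swapped, some opposite features were also read as the mRNA of the member they lie opposite to. They had to meet the rule given under processing, and this is called the reading of mRNA. Of 11 markers of working cardiomyocytes, 4 were measured in that reading and took 109629 to 123786 per 1000000 counts in Acly_KD and 115248 to 124773 in control. Among these 4, Atp2a2, Ckmt2 and Fabp3 overlapped between groups. Ckm stood at -0.20 on the log2 scale (SE 0.09, edgeR adjusted p = 0.471), with groups apart as lower, as for 6.61% of genes tested. Of 8 smooth muscle and pericyte markers 2 were measured in the reading of mRNA, at 1245 to 1665 per 1000000 in Acly_KD and 1383 to 1552 in control. No feature met the rule for any of the 10 endothelial or 8 fibroblast markers, so that reading cannot show whether such cells were present. At own rows the 10 endothelial markers summed to 25.3 to 97.5 per 1000000 in Acly_KD and 35.8 to 73.7 in control. The 7 atrial markers, which include the members Myl4 and Myl7, summed to 35.7 to 56.5 per 1000000 at own rows in Acly_KD and 65.0 to 81.0 in control, groups that did not overlap, with Sln, Bmp10 and Dkk3 at 0. Nppa and Kcnj3 held nearly all of these reads, and each of the 2 rows alone overlapped between groups. In the reading of mRNA these 2 of the 7 were measured, at 4688 to 12904 per 1000000 in Acly_KD and 3849 to 9384 in control. There Nppa stood at 0.56 on the log2 scale (SE 0.70), with groups that overlapped. Kcnj3 stood at -0.40 (SE 0.13, edgeR adjusted p = 0.230), with groups apart as lower, as for 6.61% of genes tested. The part of these other cells in the results below was not tested. In such bulk libraries fewer cells of a type and less RNA per cell cannot be told apart.

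Titin was read through Gm13938, a feature annotated as antisense on the plus strand of chromosome 2. Its 5 exons, 493 bases in all, share 453 bases with coding exons of Ttn on the minus strand (chromosome 2, 76703980 to 76982547, mm10). The shared stretches lie in exons 100, 103, 110, 122 and 172 of the 192 exons of the annotated transcript Ttn-201. Each stretch is coding in 4 of the 25 annotated Ttn transcripts. The stretches are shown in titin's own direction and in the order of its exons, because they make up 91.9% of the Gm13938 exons whose reads were taken as titin. Capitals mark the bases shared with Gm13938, and lower case marks up to 15 flanking bases of the same titin exon.
Stretch 1: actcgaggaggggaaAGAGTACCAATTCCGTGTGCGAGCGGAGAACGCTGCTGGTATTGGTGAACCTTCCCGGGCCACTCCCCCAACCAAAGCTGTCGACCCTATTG
Stretch 2: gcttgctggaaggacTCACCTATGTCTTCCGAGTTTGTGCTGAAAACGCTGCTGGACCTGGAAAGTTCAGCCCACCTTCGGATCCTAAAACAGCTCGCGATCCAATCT
Stretch 3: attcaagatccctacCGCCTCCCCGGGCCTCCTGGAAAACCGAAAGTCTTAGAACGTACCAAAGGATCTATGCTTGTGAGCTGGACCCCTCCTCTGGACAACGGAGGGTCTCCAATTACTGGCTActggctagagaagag
Stretch 4: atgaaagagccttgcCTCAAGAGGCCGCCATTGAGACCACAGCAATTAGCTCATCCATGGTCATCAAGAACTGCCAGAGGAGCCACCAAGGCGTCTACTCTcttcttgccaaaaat
Stretch 5: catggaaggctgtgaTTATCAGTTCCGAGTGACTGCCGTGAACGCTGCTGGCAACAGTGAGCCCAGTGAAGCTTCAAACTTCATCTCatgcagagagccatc
They were printed from chr2:76786617-76786723, chr2:76785102-76785209, chr2:76780907-76781046, chr2:76774425-76774540 and chr2:76722761-76722862 on the minus strand, from the GENCODE M21 transcript sequence. The stretches had 50.5% to 57.6% G and C. The run AACGCTGCTGG occurs in stretches 1, 2 and 5 and nowhere else in the 81843 bases of Ttn-201. Of 308 runs of 30 bases taken from the stretches, 0 occur a second time in that transcript.

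**Figure D1:**
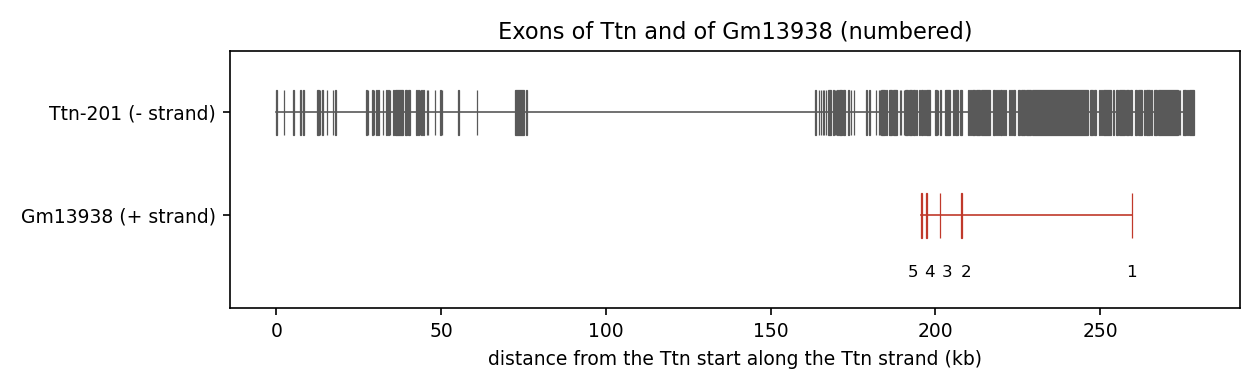
Exons of the transcript Ttn-201 (grey) and of Gm13938 (red, numbered), drawn against the distance in kb from the Ttn start along the Ttn strand. The 5 Gm13938 exons lie in the later part of the gene, over titin exons 172, 122, 110, 103 and 100 in the order of their numbers.

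Titin reads were higher in every Acly_KD library than in every control, but the difference did not pass the adjusted threshold. Gm13938 held 883, 595 and 761 reads in Acly_KD 1 to 3 and 191, 702 and 635 reads in control 1 to 3. Scaled to library size in the reading of mRNA, this was 2466, 2712 and 1923 CPM (reads per 1000000 counted) in Acly_KD and 1359, 1630 and 1731 CPM in control. The lowest Acly_KD library, replicate 3, lay above the highest control, replicate 3. The means were 2367 ± 404 CPM in Acly_KD and 1573 ± 193 CPM in control (SD, n = 3 each). The log2 fold change was 0.58 (SE 0.14, 95% interval 0.29 to 0.87) with an adjusted p of 0.0731 in edgeR's quasi-likelihood test, the seventh smallest p of 1453 genes. Groups were apart in this direction for 8.12% of the 1453 genes, 8.60% had an unadjusted p under 0.05, and 0.206% passed the adjusted threshold as higher and 0.206% as lower. In the fit of all 2952 features as deposited, the Gm13938 row stood at 0.62 on that scale (SE 0.17, edgeR adjusted p = 0.457).

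On 3 scales that use no TMM factor, the groups stayed apart on 2 and overlapped on 1. Per 1000000 uniquely aligned reads, Gm13938 held 36.9, 37.8 and 29.1 reads in Acly_KD, and in control 26.2 in replicate 2, 25.9 in replicate 3 and fewer in replicate 1. Per 100 reads of Tstd2, the feature through which tropomodulin 1 was read, it held 19.4, 20.5 and 15.6 reads in Acly_KD and 9.99, 12.1 and 12.3 in control. Tstd2 was itself lower in every Acly_KD library per 1000000 uniquely aligned reads, at 190, 184 and 186 against 210, 217 and 211, which widens this ratio. These 2 ratios separated the groups, with a two-sided exact permutation p of 0.1, the smallest that 3 against 3 libraries allow, and 0.3 when adjusted over the 12 ratios computed, which were chosen after the counts had been seen. Per 100 reads of Ccdc63, the feature through which Myl2 was read, Gm13938 held 104, 153 and 85.7 reads in Acly_KD and 64.3, 73.0 and 109 in control, and the groups overlapped (two-sided exact permutation p = 0.3, adjusted p = 0.45 over the 12 ratios). Across 18 other settings the log2 fold change of titin lay between 0.26 and 0.80, and the adjusted p between 0.00391 and 0.562. It passed the threshold in 4 of them: with library totals as the scale (adjusted p = 0.0382), without a filter on low counts (0.00391), with a replicate block (0.0497) and without Acly_KD replicate 3 (0.0136), all in edgeR. The value of 0.26 was reached when titin's own-row counts were added (adjusted p = 0.562 in edgeR). With a term for control 2 and 3, where the feature opposite to Xist had reads, it was 0.80 (adjusted p = 0.353 in edgeR). That feature held 149 and 137 reads in control 2 and 3, and 0 in control 1 and in every Acly_KD library. Xist is expressed in female cells. Sex is not given, and any part it has in these differences cannot be fully told apart from the group. Reads from titin mRNA and from a transcript of Gm13938 cannot be told apart in these counts.

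**Figure D2:**
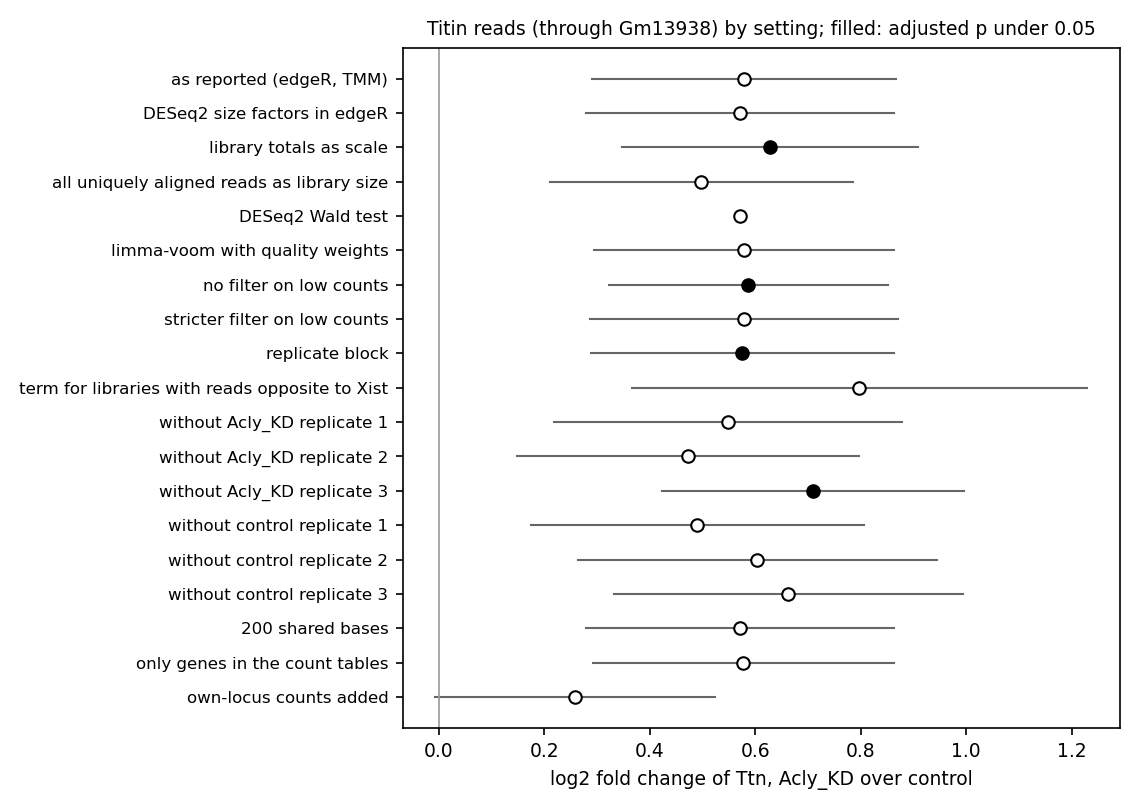
Log2 fold change of titin read through Gm13938 (x axis, Acly_KD over control) under the reported fit and 18 other settings (y axis), with 95% intervals where the tool gives them and filled points where the adjusted p was under 0.05. All points lie above zero, from 0.26 to 0.80, and 4 of the 19 are filled.

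Tropomodulin 1, which caps the pointed end of the thin filament, had the most reads of the members measured in this way. Tmod1 (chromosome 4, 46038935 to 46116032) shares 1287 bases of the untranslated end of its last exon with Tstd2 (shared bases 46114746 to 46116032), 23.1% of the Tstd2 exons, so that reads of Tstd2 itself cannot be told apart from those of Tmod1. Tstd2 held 4549, 2896 and 4866 reads in Acly_KD and 1911, 5799 and 5167 in control, or 12704, 13201 and 12299 CPM against 13595, 13465 and 14087 CPM. All 3 Acly_KD libraries lay below all 3 controls, as for 6.61% of genes tested, by a small margin. The separation depended on the scaling: in the fit as deposited Tstd2 stood at 6984, 7073 and 6082 CPM against 6958, 6861 and 7430 CPM, and the groups overlapped (log2 fold change -0.08). In the reading of mRNA the difference was -0.11 (SE 0.10, 95% interval -0.31 to 0.09, edgeR adjusted p = 0.815). The interval leaves out a change of the size read for titin.

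Myl2 encodes the regulatory light chain of ventricular myosin, which is phosphorylated to tune contraction. It was read through Ccdc63, with which it shares 60 bases (chromosome 5, 122113149 to 122113208) in an untranslated exon of 1 annotated transcript, Myl2-203. Ccdc63 held 850, 389 and 888 reads in Acly_KD and 297, 962 and 582 in control, or 2374, 1773 and 2244 CPM against 2113, 2234 and 1587 CPM. The groups overlapped, at 0.11 on the log2 scale (SE 0.14, 95% interval -0.18 to 0.41, edgeR adjusted p = 0.910). The shared stretch is 0.816% of the Ccdc63 exons, and reads from the rest of Ccdc63 enter this count, so the value is uncertain between both genes.

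**Figure D3:**
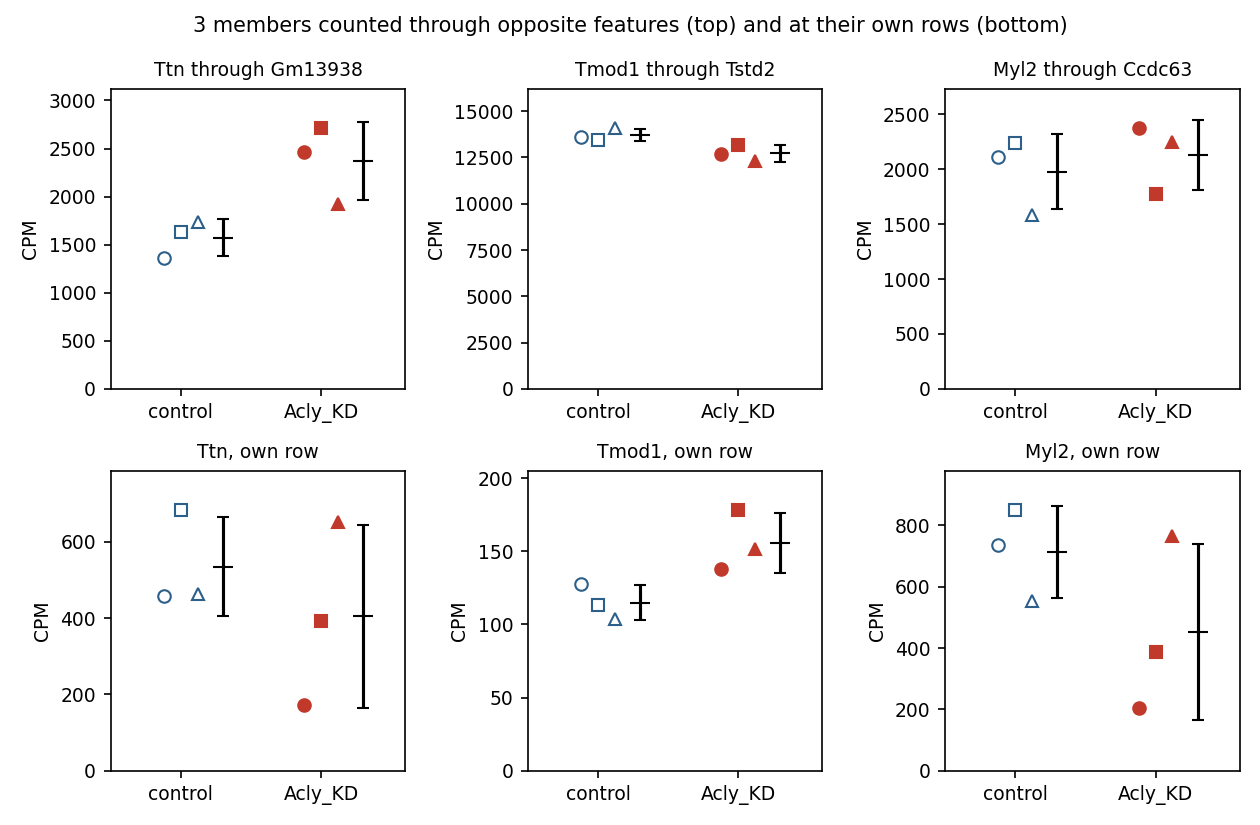
CPM (y axes, starting at 0) of Ttn, Tmod1 and Myl2 in control (open, blue) and Acly_KD (filled, red), with circles, squares and triangles for replicates 1, 2 and 3 and bars for the mean ± SD of 3 libraries. The top row shows the values through Gm13938, Tstd2 and Ccdc63 and the bottom row those of the genes' own rows, where Acly_KD replicate 1 is the lowest library for Ttn and Myl2 and lies above the controls for Tmod1.

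The other 5 opposite features held few reads. Pth1r, opposite to the essential light chain gene Myl3, held 0, 4 and 0 reads in Acly_KD and 0, 0 and 1 in control. Gm15179, opposite to Des, held 1, 2 and 3 reads in Acly_KD and 1, 2 and 2 in control. Gm22000, which shares 3 bases with Myl4, held 0, 0 and 1 reads in Acly_KD and 1, 2 and 0 in control. These 3 features hold too few reads to describe the members they lie opposite to. Hspb2, opposite to the small heat shock gene Cryab, held 4, 1 and 8 reads in Acly_KD and 0, 8 and 15 in control. Myl12a, opposite to the M-band gene Myom1, held 19, 17 and 34 reads in Acly_KD and 13, 43 and 18 in control, at -0.12 on the log2 scale (SE 0.39, edgeR adjusted p = 0.976). Pth1r, Gm15179, Hspb2 and Myl12a had fewer reads than Myl3, Des, Cryab and Myom1, so the rule gave the counts of these 4 members to their partners and read none of the 4 as mRNA, and Gm22000 gave Myl4 nothing. For the remaining 23 members no annotated exon lies on the other strand, and their mRNA was not measured here.

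At their own rows the members were low in Acly_KD replicates 1 and 2 and not in replicate 3. Of the 31 rows 26 had enough reads to be tested, and 23 of these had a log2 fold change below zero, with a median of -0.34. Over all 2952 features 54.4% were below zero, with a median of -0.04. Most of the tested member rows had no opposite-strand exons, and of those 19 rows 17 were below zero, with a median of -0.34. Of the 696 other tested features without such exons 73.4% were below zero, with a median of -0.29. None of the member rows passed: edgeR called 0 of 26, with 1 of 26 at an unadjusted p under 0.05, and DESeq2 and limma-voom also called 0. Of all features 0% passed in either direction, and 6.10% had an unadjusted p under 0.05. Against the control mean on the log2(CPM + 1) scale, the median member row lay at -1.59, -0.50 and 0.32 in Acly_KD 1 to 3 and at 0.11, 0.12 and -0.28 in control 1 to 3. Acly_KD replicate 1 was the lowest of the 6 libraries for 23 of the 26 rows (88.5%), for 51.6% of the 696 other tested features without opposite-strand exons, and for 25.9% of all features. Acly_KD replicate 3 lay above the control mean for 22 of the 26 rows. The own-row sums of some marker lists had the same order within Acly_KD, among them the endothelial list given above. The 11 cardiomyocyte markers, none of them a member, summed to 3510, 6195 and 12576 per 1000000 in Acly_KD 1 to 3 and 11471, 10855 and 8190 in control. Most of these reads came from Myh6, itself a thick filament gene. It held 1496 of 2359, 1939 of 2851 and 6717 of 10059 reads in Acly_KD 1 to 3. In control 1 to 3 it held 2195 of 3114, 5933 of 8844 and 4067 of 6171. The 8 smooth muscle and pericyte markers summed to 68.4, 133 and 206 per 1000000 in Acly_KD and 136, 140 and 149 in control, again with Acly_KD 1 lowest and Acly_KD 3 highest. Their part in the own-row values was not tested.

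**Figure D4:**
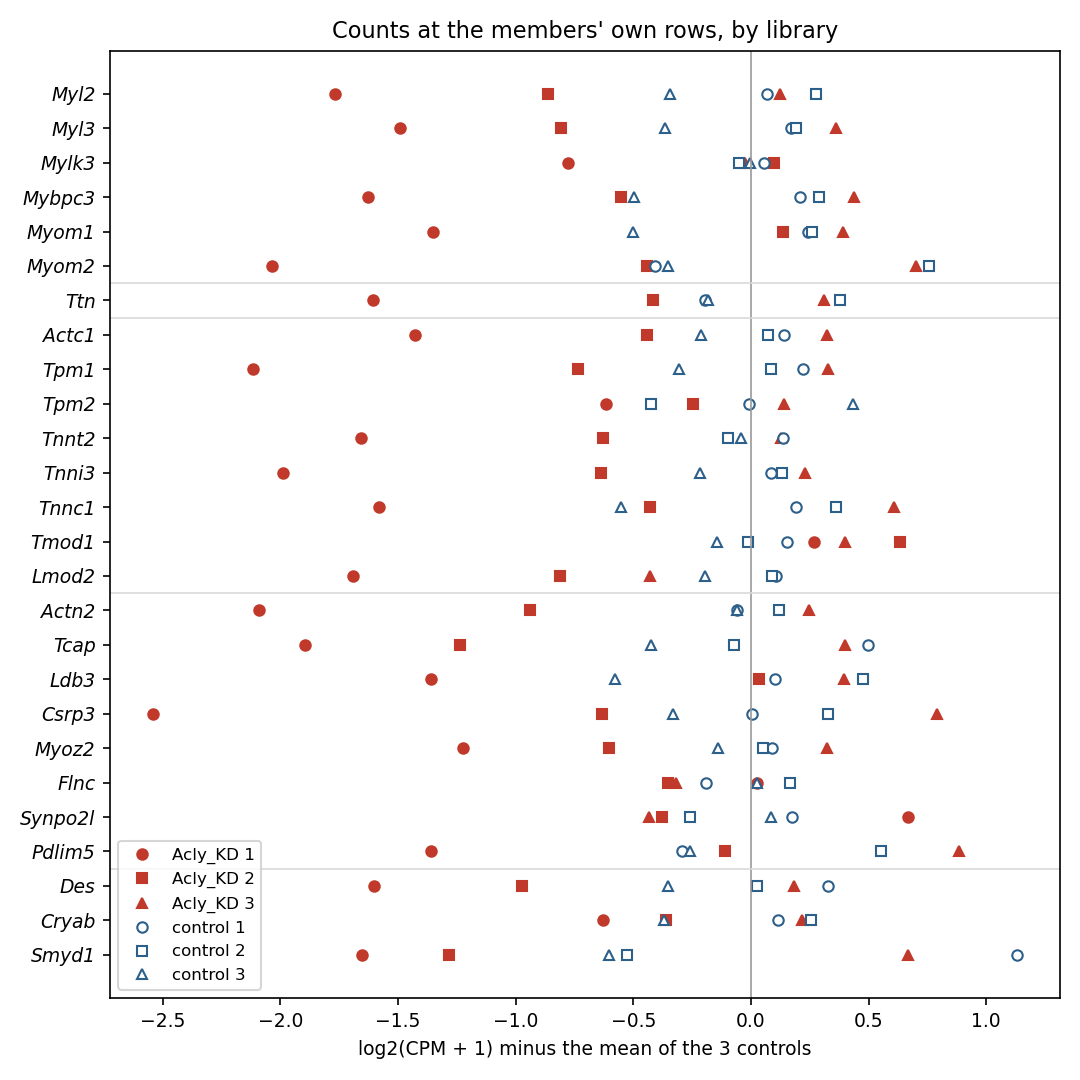
Own-row counts of the 26 members tested (y axis, in blocks for thick filament and M-band, titin, thin filament, Z-disc, and desmin with chaperone and assembly genes), as log2(CPM + 1) minus the mean of the 3 controls (x axis). Acly_KD replicate 1 (filled circles) is the leftmost point for 23 rows, and Tmod1, Flnc and Synpo2l are the rows where it is not.

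The thick filament and M-band rows were all below zero, 6 of 6 tested, with a median log2 fold change of -0.35. Myl2 held 134, 158 and 613 reads in Acly_KD and 202, 719 and 385 in control, at -0.65 on the log2 scale (SE 0.50, edgeR adjusted p = 0.959). Myl3 followed with 73, 74 and 326 reads against 98, 306 and 171. Mybpc3, the cardiac myosin-binding protein that regulates cross-bridges, held 54, 72 and 280 reads against 82, 267 and 127. In these 3 genes Acly_KD replicate 3 lay within or above the range of the controls in CPM, so the groups overlapped. Mylk3, the cardiac kinase of the regulatory light chain, stood at -0.19 (SE 0.27), Myom1 at -0.13 (SE 0.40) and Myom2, another M-band protein gene, at -0.33 (SE 0.63). The atrial light chain genes Myl4 and Myl7 were almost without reads, at 0 in all Acly_KD libraries and in control 1. Myl4 had 1 and 1 reads and Myl7 had 4 and 0 reads in control 2 and 3. A count of 0 allows up to 3 reads, or 3.68 to 11.1 CPM depending on the library, and covers counting error only.

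Titin's own row, which spans 116825 exonic bases, held 112, 161 and 521 reads in Acly_KD and 126, 578 and 322 in control. Its log2 fold change was -0.40 (SE 0.50, 95% interval -1.65 to 0.84, adjusted p = 0.965 in edgeR), on the other side of zero from the value through Gm13938. In the fit as deposited the own row read 4.58 CPM per kb of exon in control and Gm13938 read 1795 CPM per kb of shared exon. Without Acly_KD replicate 1 the own-row value was the one nearest to zero among the libraries left out in turn, at -0.032.

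Among thin filament genes 7 of 8 tested rows were below zero, with a median of -0.44. Tnnt2, the cardiac troponin that binds tropomyosin, had the most reads of all member rows, 561, 720 and 2376 in Acly_KD and 821, 2148 and 1834 in control, at -0.54 on the log2 scale (SE 0.45, edgeR adjusted p = 0.959). Tpm1, the main cardiac tropomyosin, held 177, 291 and 1185 reads against 378, 1061 and 664. Tnni3, the inhibitory troponin of the adult heart, held 97, 156 and 557 reads against 173, 550 and 355. In these 3 rows, as in Myl2, Myl3 and Mybpc3, Acly_KD 1 and 2 lay below every control in CPM and Acly_KD 3 did not. Mylk3 and Myom1 differed, since Acly_KD 2 lay above every control for Mylk3 and within the control range for Myom1. Actc1, the cardiac actin, stood at -0.34 (SE 0.43), Tnnc1, the calcium-binding troponin, at -0.22 (SE 0.51), and Tpm2, with 4 to 14 reads a library, at -0.24 (SE 0.57). Tnni1, the troponin I of slow and fetal muscle, had 0 reads in all 6 libraries. Nebl, which encodes the thin filament and Z-disc protein nebulette, had 2 to 20 reads and was not tested.

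Lmod2 and Tmod1, whose proteins act at the pointed end of the thin filament, were the only member rows whose groups did not overlap, and they lay on opposite sides. Lmod2, leiomodin 2, lengthens thin filaments, and its row held 61, 71 and 181 reads in Acly_KD and 90, 274 and 185 in control. This was 93.7, 173 and 226 CPM against 328, 324 and 266 CPM. All Acly_KD libraries were lower, as for 5.56% of features, at -0.89 on the log2 scale (SE 0.27, 95% interval -1.46 to -0.31, edgeR adjusted p = 0.549). Fitted among features without opposite-strand exons alone, it stood at -0.58 (SE 0.39, 95% interval -1.34 to 0.18, edgeR adjusted p = 0.873), and without Acly_KD replicate 1 at -0.59. The Tmod1 row held 90, 73 and 121 reads in Acly_KD and 35, 96 and 72 in control, or 138, 178 and 151 CPM against 127, 114 and 104 CPM. All Acly_KD libraries were higher, as for 5.83% of features, at 0.45 on the log2 scale (SE 0.21, 95% interval -0.01 to 0.90, edgeR adjusted p = 0.838). Tmod1 and Tstd2 overlap, so with the strand in doubt the reads of this row are uncertain between both genes.

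At the Z-disc 6 of 8 tested rows were below zero, with a median of -0.23. Actn2, the sarcomeric alpha-actinin, held 54, 76 and 339 reads in Acly_KD and 94, 327 and 238 in control, at -0.61 on the log2 scale (SE 0.57, edgeR adjusted p = 0.959). Tcap, telethonin, which caps the end of titin at the Z-disc, held 32, 32 and 196 reads against 72, 149 and 96. Csrp3, the muscle LIM protein, held 8, 20 and 106 reads against 21, 81 and 42. Ldb3 and Myoz2, both partners of alpha-actinin, stood at -0.20 (SE 0.44) and -0.34 (SE 0.33). Flnc, filamin C, and Synpo2l did not show the low value in Acly_KD replicate 1. Flnc held 58, 28 and 56 reads against 21, 83 and 62 (log2 fold change -0.23, SE 0.26), and Synpo2l held 27, 8 and 15 reads against 8, 18 and 19 (0.08, SE 0.47). Pdlim5 stood at 0.01 (SE 0.50), and Myot, myotilin, had 1 to 6 reads and was not tested.

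Desmin, the intermediate filament that ties Z-discs together, held 45, 44 and 192 reads in Acly_KD and 73, 182 and 115 in control at the Des row, at -0.59 on the log2 scale (SE 0.44, edgeR adjusted p = 0.935). Cryab, a chaperone of desmin, stood at -0.22 (SE 0.36). Smyd1, a methyltransferase needed for myofibril assembly, stood at -0.39 (SE 0.69), with 6, 5 and 40 reads against 19, 18 and 14. Per kb of exon the highest own rows in control were Actc1 (404 CPM), Myl2 (366), Tnnt2 (351) and Tnni3 (289), and the lowest tested were Ttn (4.58), Tpm2 (5.20), Pdlim5 (5.26) and Synpo2l (5.60).

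The low own rows of Acly_KD 1 and 2 were shared by features outside the member list, from which other sarcomere and Z-disc genes were not removed. Over the 696 other tested features without opposite-strand exons, the median lay at -0.91, -0.30 and 0.21 in Acly_KD 1 to 3 and at 0.06, 0.14 and -0.10 in control, and 73.4% had a log2 fold change below zero. Such features, members included, held 4.96%, 6.96% and 10.3% of the nuclear counts in Acly_KD 1 to 3 and 9.04%, 9.03% and 7.79% in control. Scaled and tested among such features alone, which was tried only once the values were known, the median over 18 member rows was -0.11, and 13 of the 18 were below zero. Per 1000 reads of the other such features the members without opposite exons held 68.5, 105 and 140 reads in Acly_KD and 143, 130 and 126 in control (exact permutation p = 0.3, two-sided, adjusted p = 0.45 over 12 ratios). The groups overlapped, with Acly_KD 1 and 2 below all controls.

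Single libraries decided the own-row values. Without Acly_KD replicate 1 the median over 27 tested member rows was -0.025, and 16 of the 27 were below zero. Without Acly_KD replicate 3 the median over 25 rows was -1.02, and edgeR called 7 of the 25 lower and 0 higher, where 1.53% of 2998 features were called lower and 0.767% higher. The 7 rows were Actn2, Des, Lmod2, Myl2, Myl3, Tcap and Tnnt2, with log2 fold changes from -1.53 to -1.02. They are named because they passed there, after their values had been seen. The median without control replicate 3 was -0.52 over 26 rows.

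Own-row reads were set against opposite-feature reads for the members measured in the reading of mRNA, Ttn, Myl2 and Tmod1. For Ttn the own row held 12.7, 27.1 and 68.5 reads per 100 reads of Gm13938 in Acly_KD and 66.0, 82.3 and 50.7 in control. For Myl2 it held 15.8, 40.6 and 69.0 reads per 100 reads of Ccdc63 in Acly_KD and 68.0, 74.7 and 66.2 in control. In both genes Acly_KD 1 and 2 lay below every control and Acly_KD 3 within their range (exact permutation p = 0.3, two-sided, for each). For Tmod1 the ratio was far lower and the groups were apart the other way, at 1.98, 2.52 and 2.49 reads per 100 reads of Tstd2 in Acly_KD and 1.83, 1.66 and 1.39 in control (exact permutation p = 0.1, the smallest possible). Adjusted over the 12 ratios these p-values were 0.45, 0.45 and 0.3.

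Of 91 other genes of the sarcomere, Z-disc and their supports, none passed in either reading: 0 of 33 tested rows as deposited and 0 of 13 genes in the reading of mRNA were called by edgeR. As deposited 26 of 33 were below zero, with a median of -0.21 and 3 at an unadjusted p under 0.05, against 6.10% of all 2952 features. In the reading of mRNA 7 of 13 were below zero, with a median of 0.00 and 1 at an unadjusted p under 0.05, against 8.60% of all 1453 genes. Among the 7, Myl12a (-0.13) and Hspb2 (-0.22) hold the own-row reads of the members Myom1 and Cryab again. The most abundant of these genes in the reading of mRNA, after Myh7, had narrow intervals around zero. They were -0.31 to 0.15 for Trim54, a ubiquitin ligase of the sarcomere, -0.19 to 0.28 for Vcl, vinculin, and -0.32 to 0.22 for Nrap, which acts in myofibril assembly. Myh7, the slow myosin heavy chain, had the widest of these 4, -3.08 to 0.36, with 6694, 5014 and 6443 CPM in Acly_KD and 6993, 10226 and 29362 CPM in control. The groups did not overlap there, and control 3 stood far above the other libraries. Sorbs2, a Z-disc adaptor named after its values were seen, held 543, 258 and 408 reads in Acly_KD and 123, 269 and 356 in control. Its groups did not overlap in CPM, at 0.60 on the log2 scale (SE 0.17, edgeR adjusted p = 0.155). Of the 13 genes 1 had groups apart as higher and 1 as lower, against 8.12% and 6.61% of all 1453 genes. As deposited, the rows with the most reads included Myh6, the main myosin of the adult mouse heart (-0.43, SE 0.50), Myh7 (-0.52, SE 0.18) and Xirp1 (-1.19, SE 0.41), with adjusted p from 0.579 to 0.964 in edgeR. Xirp1, an actin-binding protein of the intercalated disc, held 103, 90 and 182 reads in Acly_KD and 51, 505 and 390 in control.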

How the data were processed

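The kit used for these poly-A libraries preserves strand, per the labels' protocols. For the steps from reads to tables, mm10 and the tools HTSeq, TopHat2, SAMtools, FastQC and DESeq2 are listed, with no version, in the submitters' processing notes. The deposited values are whole-number read counts per gene made by the authors, with no normalization. Which strand HTSeq was told to count: not given in the sources used here. Rows that name no gene took 97.4% to 97.7% of entries and stayed out of totals and tests.

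Groups and replicate numbers came from titles. Features were matched by identifier to GENCODE M21 (45143 of 46078). In the reading of mRNA, the reads of a nuclear feature were moved to a gene across from it, and summed there, when 3 conditions held. That gene covered 80% or more of the feature's overlap with exons on the other strand, both shared 50 bases or more, and its own row was smaller or missing. Both tables went through edgeR 4.0.16 under R 4.3.3 (TMM scaling, minimum count 10 in filterByExpr, quasi-likelihood with robust priors, Benjamini-Hochberg over all rows tested, threshold 0.05). CPM are TMM-scaled within the rows tested, except marker sums, which are per 1000000 counts of the table. Fold changes are Acly_KD over control. Named are all members, all features opposite to them, the pathway genes that passed or else the 4 with most counts per reading (1 of them is not reported here), and Acly, except where the text says otherwise. Members, lists and rules were chosen with earlier results of these data known. On simulated counts the test recovered 3.08%, 27.6% and 66.1% of 1.5-, 2- and 3-fold changes among 2792 features as deposited, and 30.8%, 72.6% and 92.2% among 1404 genes in the reading of mRNA. Each simulated feature was drawn on its own, without a shift shared between rows, and 2607 features and 1213 genes were left unchanged. Recovery in the real libraries may differ from these values. Alternatives were DESeq2 1.42.0, limma-voom (limma 3.58.1), other scalings, filters and overlap rules, a replicate block, an Xist term and each library left out. No 2 libraries of a group agreed within sampling noise, with a chi-square per degree of freedom of 3.43 to 10.1.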

Additional observations from a re-analysis of the deposited data

How the results depend on the processing

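Titin kept its direction in all 18 alternatives and passed in 4. As deposited edgeR called 0 features in each direction. Without a filter on low counts it called 2 higher and 1 lower, and with 1 library left out 0 to 23 higher and 0 to 46 lower, the largest without Acly_KD replicate 3, where the median of member rows was -1.02, against -0.025 without Acly_KD replicate 1. In the reading of mRNA 3 genes were called higher and 3 lower. The counts were 12 and 18 without a filter, and 0 and 0 with a stricter filter (98 at an unadjusted p under 0.05 in edgeR), with the Xist term (96) and with own-row counts added (135). Only the higher calls moved when libraries were scaled by all uniquely aligned reads (0), with DESeq2's Wald test (1) and with 200 shared bases (1). With 1 library left out they were 0 to 8 and 1 to 12, and the median of Ttn, Tmod1 and Myl2 was -0.019 to 0.22, with -0.019 also the value of Myl2 without control replicate 3. With own-row counts added that median was -0.10 and Myl2 stood at -0.16.

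Whether same-numbered libraries form pairs is not given. Their deviations from the group means had correlations of -0.18 to -0.02 as deposited and -0.04 to -0.02 in the reading of mRNA. With 3 libraries a group, each centred on its group mean, these values cannot decide whether the libraries were paired. With a replicate block 0 features were called as deposited, and 5 genes higher and 7 lower in the reading of mRNA.

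Some own rows, and the opposite features Tstd2 and Myl12a, changed sign between settings. Not all of them were near zero in the reported fit, where Smyd1 stood at -0.39, Mybpc3 at -0.36, Actc1 at -0.34 and Myom2 at -0.33. Pdlim5 stood at -0.044 with library totals, -0.066 with all uniquely aligned reads, -0.34 with limma-voom and -0.072 with the block. Synpo2l stood at -0.030, -0.023 and -0.066 with the last 3 of these and at -0.12 with the Xist term, which put Myom2 at 0.24. Tstd2 stood at 0.023 without a filter. Among features without opposite-strand exons alone Flnc stood at 0.26, Ldb3 at 0.086 and Mylk3 at 0.16. With 1 library left out the ranges were -0.83 to 0.0038 for Actc1, -1.42 to 0.28 for Csrp3, -0.59 to 0.18 for Ldb3, -1.02 to 0.028 for Mybpc3, -0.39 to 0.14 for Myl12a, -0.33 to 0.040 for Mylk3, -0.47 to 0.26 for Myom1, -1.28 to 0.22 for Myom2, -0.75 to 0.42 for Pdlim5, -1.54 to 0.30 for Smyd1, -0.40 to 0.39 for Synpo2l, -0.96 to 0.19 for Tnnc1 and -0.10 to 0.044 for Tstd2. The cause was not tested. Leaving out mitochondrial rows applies to the deposited table only, since the reading of mRNA holds none. Spread between libraries was wide also in deep rows: Tnnt2, with 8460 reads, had an SE of 0.45 and Tpm1, with 3756, of 0.64. Too few reads were counted to test 5 of the 31 own rows.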

Other observations

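Gm13938 is annotated as spliced, and most of its exon borders fall inside titin exons, so the neighbouring bases can be read on its own strand. Of the 4 borders where an intron of Gm13938 would begin, 2 are followed by GT, 1 by GC and 1 by TC. Of the 2 readable borders where such an intron would end, both are preceded by AG. Per 1000000 uniquely aligned reads, Tstd2 held 190, 184 and 186 reads in Acly_KD and 210, 217 and 211 in control, groups that did not overlap (two-sided exact permutation p = 0.1, the smallest possible, and 0.3 adjusted over 12 ratios). On the same scale Ccdc63 held 35.5, 24.7 and 34.0 reads in Acly_KD and 32.6, 35.9 and 23.7 in control, groups that overlapped (exact permutation p = 0.8). The 8 skeletal muscle markers together held 3, 4 and 2 reads at their own rows in Acly_KD and 0, 2 and 0 in control, or 4.46, 8.69 and 2.50 per 1000000 counts against 0, 2.45 and 0. The reads came from Mylpf, Tnnt3, Tnni2 and Actn3, while Myh1, Myh2, Myh3 and Myh4 were at 0 in all 6 libraries. Acly_KD 3 and control 2 held 2 reads each, and a count of 0 allows up to 3 reads. These sums are therefore too small to tell the groups apart.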
